A study of Homo sapiens with 12 samples.

Results

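SOX2 binding in the human germ cell tumour line 2102EP was described from the list of 17795 SOX2 peaks that the authors made by chromatin immunoprecipitation and sequencing (ChIP-seq), which were 17795 of the 35302 peaks of the series. All entries of the SOX2 list were taken, with no filter on score, apart from 2 lines that had been blanked in each list before this work. 2102EP is an established line with the label of embryonal carcinoma-like cells. SOX2 was precipitated with an anti-SOX2 antibody from 3 biological replicates of doubly crosslinked, enzymatically digested chromatin, and 3 libraries of 2% input chromatin of the same line served as control. The 17507 SOX17 peaks of the other line of the study, the seminoma-like line TCam-2 (3 anti-SOX17 libraries and 3 libraries of 2% input), were used only to ask which genes of the SOX2 list they also named. No genetic change or treatment is given in the labels for any group.

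The list holds merged peaks and no value of a single library. Depth is therefore unknown, no value carries an error over replicates, and no test between groups could be made. Intervals are 95% Wilson intervals over peaks or genes and cover counting only. Each factor was studied in 1 line with 1 antibody, so factor, antibody and line cannot be told apart where the lists differ. The labelled cell type could not be checked against transcripts, because the lists hold no expression values.

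SOX2 is a transcription factor of the SoxB1 family, whose HMG box contacts the minor groove of DNA at words such as CATTGT and CTTTGT and bends it. In pluripotent cells and embryonal carcinoma SOX2 works with OCT4, the product of POU5F1, which reads the octamer ATGCAAAT. At composite sites the SOX word and the octamer stand side by side, and genes such as NANOG, FGF4, UTF1 and SOX2 itself are controlled through them in mouse or human embryonic stem cells. SOX2 also acts in neural progenitors, and it is a marker that separates embryonal carcinoma from seminoma, in which SOX17 is found in its place.

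The reference sequence of hg38 under 3 peaks with the canonical SOX-OCT site is printed first, because this site is the best known form of SOX2 binding in pluripotent cells. The canonical site was defined as CATTGT or CTTTGT, 1 base, and ATGCAAAT or ATGCTAAT with at most 1 mismatch, on either strand. The plus strand is printed 5′ to 3′, and capitals mark the canonical site. The first peak lies in intron 1 of SMARCA2, the second beside MIR9-2 and the third downstream of the SOX2 start site.
SMARCA2, chr9:2018955-2019070: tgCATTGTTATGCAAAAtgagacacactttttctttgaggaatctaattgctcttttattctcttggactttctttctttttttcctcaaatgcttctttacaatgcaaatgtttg
MIR9-2, chr5:88664660-88664776: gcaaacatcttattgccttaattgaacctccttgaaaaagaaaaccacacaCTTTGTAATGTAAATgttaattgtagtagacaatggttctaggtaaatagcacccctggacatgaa
SOX2, chr3:181716081-181716211: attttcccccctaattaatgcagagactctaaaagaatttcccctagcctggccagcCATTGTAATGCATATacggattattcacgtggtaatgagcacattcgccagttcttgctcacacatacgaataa

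Next are 3 of the 5 highest-scoring peaks and high-scoring peaks of 2 genes that the SOX17 list did not name, shown so that the SOX words in them can be seen. Capitals here mark CATTGT or CTTTGT, the forms with T as the first base, TATTGT or TTTTGT, the reverse complements of these words, and the octamer ATGCAAAT or ATGCTAAT. The SOX5 peak holds 3 such SOX words and the PCDH1 peak also 3, in each case with a pair facing in opposite directions. In the RCC2 peak, in an element of the LTR class, none was found. The HOXB1 peak lies in an annotated (CAAA)n simple repeat, and its capitals come from that repeat. The peaks of AKAP3 and ZBTB8OS, also high-scoring and not named by the SOX17 list, are not printed. Each held 1 SOX word between its start and end, with T as its first base. These words, and those of the next paragraph, were searched only between the start and end of each peak. The counts over all peaks below use a window around the peak centre instead. In that window AKAP3, ZBTB8OS and HOXB1 each had 1 site of the form CATTGT or CTTTGT.
SOX5, chr12:23757656-23757788: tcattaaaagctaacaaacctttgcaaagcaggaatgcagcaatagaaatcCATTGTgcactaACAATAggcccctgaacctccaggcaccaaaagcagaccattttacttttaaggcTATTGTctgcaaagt
PCDH1, chr5:141816689-141816803: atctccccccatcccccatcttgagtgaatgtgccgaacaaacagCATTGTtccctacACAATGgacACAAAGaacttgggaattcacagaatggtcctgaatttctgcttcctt
RCC2, chr1:17470188-17470337: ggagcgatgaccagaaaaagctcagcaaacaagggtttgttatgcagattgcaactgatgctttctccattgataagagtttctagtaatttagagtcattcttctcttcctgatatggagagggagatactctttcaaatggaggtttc
HOXB1, chr17:48520878-48520994: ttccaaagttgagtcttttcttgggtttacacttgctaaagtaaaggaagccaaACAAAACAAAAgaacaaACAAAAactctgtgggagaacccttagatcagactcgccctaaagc
GAST, chr17:41705283-41705388: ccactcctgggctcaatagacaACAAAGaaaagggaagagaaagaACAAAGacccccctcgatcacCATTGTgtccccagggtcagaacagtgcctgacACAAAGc

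The peaks of 6 genes are shown with the same marks, because pluripotency genes are the best known setting of SOX2 in this cell type. In the gene lists used below, OTX2 stands among primed and neural genes and LEFTY2 among Nodal and BMP genes. The others are on the core pluripotency list. NANOG, OTX2 and LEFTY2 hold CATTGT or CTTTGT on either strand. LIN28B and DPPA4 hold only words that begin with T, and DPPA4 also an exact octamer. None of the words searched was found between the start and end of the POU5F1 peak, nor in the GDF3 peak, which is not printed. In the window around the centre used for the counts below, POU5F1 had 1 site of the form CATTGT or CTTTGT and GDF3 had 0.
POU5F1, chr6:31172002-31172106: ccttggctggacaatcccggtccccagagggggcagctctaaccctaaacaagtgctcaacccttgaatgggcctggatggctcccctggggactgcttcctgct
NANOG, chr12:7787681-7787799: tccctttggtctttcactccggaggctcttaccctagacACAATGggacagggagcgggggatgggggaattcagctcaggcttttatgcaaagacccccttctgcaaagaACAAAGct
OTX2, chr14:56805920-56806030: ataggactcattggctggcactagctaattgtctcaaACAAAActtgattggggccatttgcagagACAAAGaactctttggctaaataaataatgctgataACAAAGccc
LEFTY2, chr1:225945784-225945927: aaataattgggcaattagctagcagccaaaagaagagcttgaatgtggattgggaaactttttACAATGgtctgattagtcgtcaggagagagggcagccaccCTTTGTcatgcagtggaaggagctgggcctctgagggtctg
LIN28B, chr6:104957414-104957540: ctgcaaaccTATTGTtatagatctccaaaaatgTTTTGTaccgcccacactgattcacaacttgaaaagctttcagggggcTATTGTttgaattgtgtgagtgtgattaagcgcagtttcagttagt
DPPA4, chr3:109355800-109355920: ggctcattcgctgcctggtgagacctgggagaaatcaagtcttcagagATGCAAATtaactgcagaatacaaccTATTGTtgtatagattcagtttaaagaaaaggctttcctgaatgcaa

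Over all peaks, SOX words were common and the canonical SOX-OCT site rare. A SOX site (CATTGT or CTTTGT) lay within 100 bp of the centre in 10761 of 17795 peaks (60.5%, 59.8 to 61.2%). Windows of the same width 2000 bp to either side held one in 8730 of 35590 cases (24.5%). With C or T as the first base the shares were 82.1% of peaks and 53% of flanking windows. More than 1 SOX site was present in 3737 peaks (21%). The median GC content was 43.8% in peak windows and 41.8% in flanking windows, so their base composition was close but not equal.

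The octamer of OCT4 was also found more often in SOX2 peaks than beside them. An exact ATGCAAAT or ATGCTAAT stood in 2688 peaks (15.1%, 14.6 to 15.6%), against 880 of 35590 flanking windows (2.47%). Of these peaks 1484 also held a SOX site (8.34% of all peaks). The canonical arrangement was present in 295 peaks (1.66%, 1.48 to 1.86%), against 10 flanking windows (0.0281%), and 42 of the 295 had an octamer with no mismatch. Neither an octamer nor any of the 4 SOX words was found in 2499 peaks (14%).

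A count of all words of 6 and of 8 bases, with strands pooled, put the same words near the top. It was made after the data had been seen, within 50 bp of the centre in the 10426 peaks outside repeats. Among 2080 words of 6 bases, ACAAAG had the largest gain in share, with 33.7% of peaks against 7.64% of flanking windows, and ACAATG was the third with 23.3% against 5.77%. These are the reverse complements of CTTTGT and CATTGT. Among 31963 words of 8 bases AACAAAAG led with 8.27% against 0.988%, and AACAAAGG followed with 7.15% against 0.508%. The octamer ATGCAAAT was in the fifth place, with 6.14% of peaks against 0.786% of flanking windows.

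SOX sites gathered near the peak centre, with the maximum on its plus side. This side is the direction of the reference plus strand, with sites of both strands pooled and windows not turned by gene or site. The source of the shift was not tested. The fullest positions, 11 and 3 bp to that side, held 200 and 199 sites, and the centre itself 143. Of the 15426 SOX sites in peak windows 40.2% lay within 20 bp of the centre, compared with 21.7% in flanking windows, and 66.1% of the 295 canonical sites did. The share of peaks with a SOX site hardly changed with the score: it ran from 57.7% to 63.3% over score deciles, with 60.4% in the lowest and 63.3% in the highest decile. The octamer share was 14.7% in the lowest and 17.5% in the highest decile. The median score was 25 for peaks with a canonical site, 24.1 for peaks with another SOX site and 24.1 for peaks with no SOX site. The canonical share was 1.63% in the lowest and 2.47% in the highest decile, with 1.07% in the sixth. It was 2.5% (1.7 to 3.66%) in the 1000 highest-scoring peaks.

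**Figure D1:**
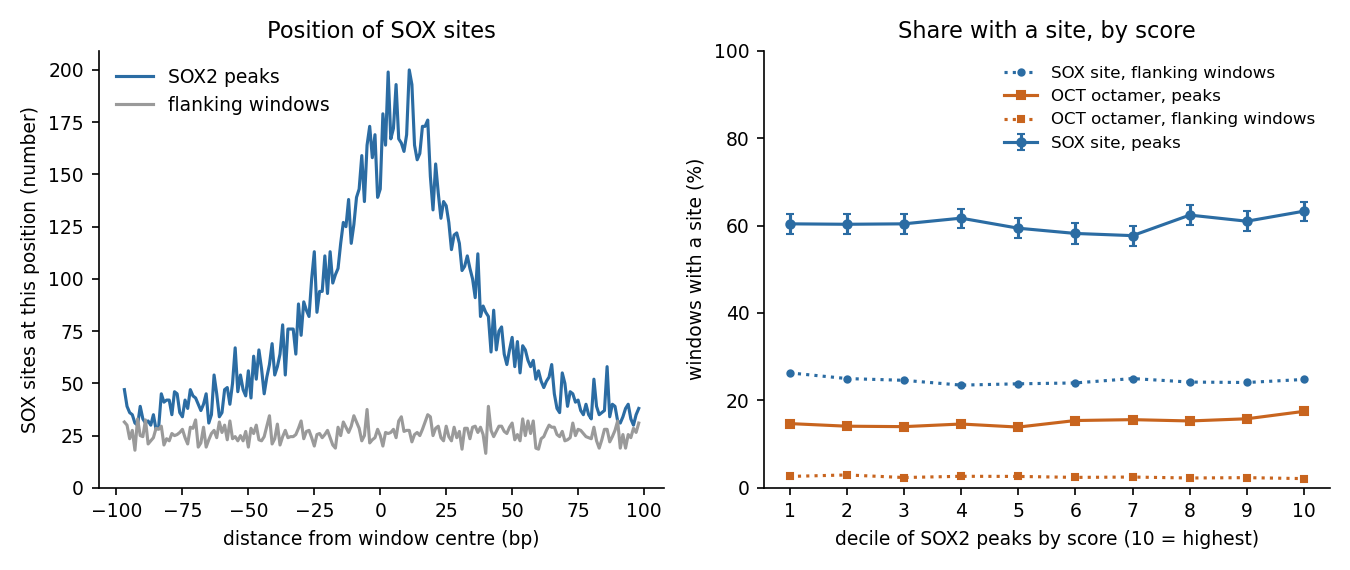
Left, number of SOX sites (y axis) by distance from the window centre in bp (x axis), for SOX2 peaks (blue) and for the mean of the flanking windows 2000 bp away (grey). Right, percentage of windows with a SOX site or an exact OCT octamer by score decile, with 95% Wilson intervals for the SOX site in peaks. SOX sites are most frequent just to the plus side of the centre along the reference sequence. Both peak shares stay above their flanking windows in every decile.

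The peak score is the authors' own, its scale is not stated, and it is used only to rank peaks within this list. It ran from 6.96 to 942.8, with a median of 24.1 and quartiles of 15.6 and 43.2. Only 1295 peaks scored over 100 and 13 over 500. The highest score, 942.8, belonged to an intron 7 site of SOX5, which encodes a SoxD transcription factor, 173110 bp upstream of the annotated start site. The PCDH1 peak had 814.7. It is intergenic and lies 49456 bp from the start of this protocadherin gene.

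Among the other loci of the 20 highest scores, KIAA1551 (now RESF1) had 734.9. RESF1 silences retroelements in mouse embryonic stem cells, and its peak itself lies in a MER34A1 element. SMARCA2, an ATPase of the BAF remodelling complex, had 524.6, and KDM4A, a histone demethylase, had 481.8. ETV6, an ETS family repressor, had 667.5, and the PI3-kinase subunit gene PIK3R3 had 471. The other named loci were PARP11 (795), RCC2 (728.4), NLGN1-AS1 (722.3), DNAJB6 (650.3), MIR620 (630), CCDC129 (now ITPRID1, 601.7) and AKAP3 (552.7). LOC101929011 (now LINC02702, 530.9), ARNTL2-AS1 (495.3), HOXB1 (465.1), GAST (441.8), ZFP64 (434.9) and FAM106A (433.9) completed the 20. FAM106A belongs to a family of near-identical copies, so the placement of its reads is uncertain.

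**Figure D2:**
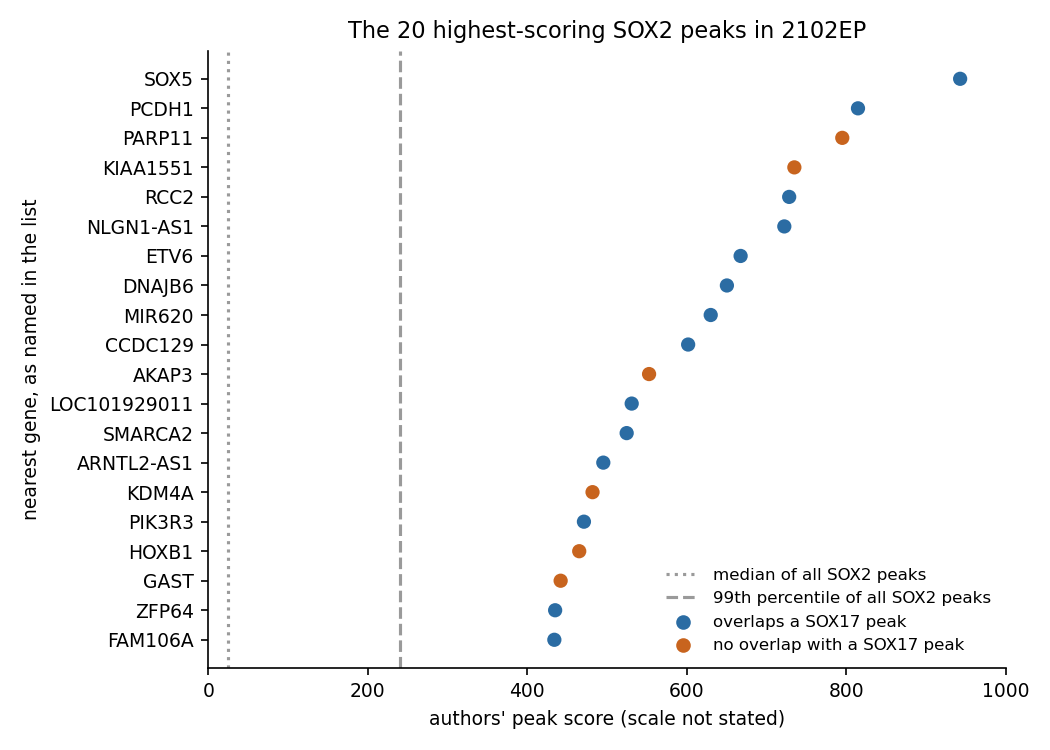
Peak score of the 20 highest-scoring SOX2 peaks (x axis), named by nearest gene (y axis), in blue where the peak overlaps a SOX17 peak of TCam-2 and in orange where it does not. The dotted line is the median of all SOX2 peaks (24.1) and the dashed line the score that 1% of them exceed (239.8).

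None of the 20 highest-scoring loci fell in the promoter-TSS class, which held 2.56% of all peaks, so this count does not set them apart. Their distances from the start site ran from 2933 bp for SMARCA2 to 640542 bp for MIR620. The plot of the highest scores shows that 14 of them overlapped a SOX17 peak, against 24.9% of all SOX2 peaks. A SOX site was present in 15 (all peaks, 60.5%) and the canonical site in 2, SMARCA2 and FAM106A (all peaks, 1.66%). The repeat class LTR held 4 (all peaks, 25.5%). The short arm of chromosome 12 held 6 of the 20 but 1.66% of all peaks. Its 296 peaks had a median score of 47.4, compared with 26.7 on the long arm. Gain of this arm is a hallmark of testicular germ cell tumours. Copy number was not analysed here, and its part in these scores was not tested.

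SOX2 peaks lay mostly away from promoters. By the deposited annotation 9076 were intergenic (51%, 50.3 to 51.7%) and 7733 intronic (43.5%, 42.7 to 44.2%). The promoter-TSS class held 456 (2.56%, 2.34 to 2.81%), and 211 lay at transcript ends (1.19%), 133 in 3′ UTRs, 79 in non-coding transcripts, 76 in coding exons and 31 in 5′ UTRs. The first intron held 2501 of the intronic peaks (32.3%). The share of the genome in each class is not given here, so no excess or lack can be read from these shares. The promoter class had a median score of 20.8, against 24.2 for both intergenic and intronic peaks. A SOX site was as frequent in it (58.6%, 54 to 63%) as in intergenic (60.3%) and intronic peaks (60.8%), within counting error. The octamer share in it was 8.55% (6.32 to 11.5%), below the 15.1% of all peaks.

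The median distance to the nearest start site was 40369 bp, with quartiles of 13489 and 108556.5 bp. Within 1000 bp of a start site lay 636 peaks (3.57%), and 2939 (16.5%) lay from there to 10000 bp. The largest group, 6340 peaks (35.6%), lay between 10000 and 50000 bp. Between 50000 and 100000 bp lay 3061 peaks (17.2%), between 100000 and 500000 bp 4364 (24.5%), and beyond that 455 (2.56%). Within 1000 bp more peaks lay upstream (386) than downstream (250) of the start site, and over all distances 45.8% lay upstream. The extremes were 2563296 bp upstream of OR11H12, with a score of 8.46, and 1509455 bp downstream of CDH11, with 39.7.

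**Figure D3:**
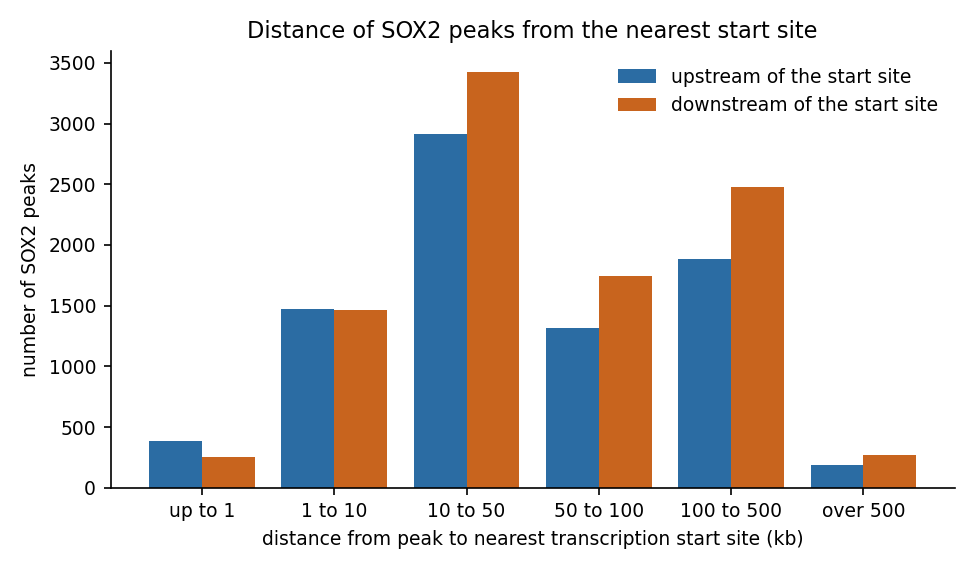
Number of SOX2 peaks (y axis) by distance to the nearest transcription start site in kb (x axis), upstream in blue and downstream in orange. The group from 10 to 50 kb is the largest, with 2912 upstream and 3428 downstream peaks, and the group up to 1 kb holds 386 and 250.

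A few genes carried a strong peak at their start site. REST, which encodes the repressor of neuronal genes, had the highest such score, 424.6, at 294 bp upstream (chromosome 4, 56907532 to 56907632). OTX2, a homeobox gene of anterior neuroectoderm and primed pluripotency, had 383.8 at 312 bp upstream. SOX6, a partner of SOX5 in the SoxD group, had 234.8 at 440 bp upstream. TDGF1 (now CRIPTO), the Nodal co-receptor gene, had 218.5 at 61 bp downstream. LOC100130207 (375.3), NRG1 (365.4), DLGAP1-AS2 (303), AK4 (236.1), TIMP4 (228.8) and MOBP (216.6) were the other members of the 10 highest, and 8 of the 10 were in the promoter-TSS class. All of these but NRG1, TIMP4 and MOBP overlapped a SOX17 peak. Such overlap was found for 24.9% of all SOX2 peaks, 33.3% of the promoter-TSS class and 49% of the highest score decile. No SOX site lay within 100 bp of the centre in the peaks of REST, SOX6, LOC100130207, DLGAP1-AS2, AK4 and TIMP4. The peaks of OTX2, TDGF1, NRG1 and MOBP held at least 1, where 60.5% of all peaks and 58.6% of the promoter-TSS class did. None of the 10 held a canonical site.

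Repeats held 7369 peaks (41.4%), and 4537 (25.5%) were in the repeat class LTR, which holds both the ends of endogenous retroviruses and their internal sequence (names with -int). For repeats, too, the share of the genome is not given here. Elements differed in the words they carried. LTR7, the LTR of HERV-H, held 413 peaks with a median score of 29.7, and 28.1% (24 to 32.6%) had a SOX site and 0.484% an octamer. LTR5_Hs, the youngest LTR group of HERV-K, held 206 peaks with a median score of 35.5, and 80.1% (74.1 to 85%) had a SOX site. MER4E1 held 151 peaks with a median of 44.7, of which 38.4% had a SOX site and 32.5% an octamer. The SVA retroposons held 169 peaks with a low median of 18.4, and 98.8% of them had a SOX site.

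Octamers and canonical sites were frequent in other elements. LTR9B held an octamer in 81 of 85 peaks (95.3%), THE1B-int in 88 of 108 (81.5%) and MSTA-int in 155 of 197 (78.7%). Of the 295 canonical sites 27 lay in LTR8A, where they were in 37% of 73 peaks (26.8 to 48.5%), and 13 in MER21C (9.7% of 134 peaks). The octamer share was 23.8% in the repeat class LTR, internal sequence included, and 12% outside all repeats, where flanking windows had 2.26%. Copies of 1 element share their sequence and are not independent, and how reads in near-identical copies were placed is not known here.

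The canonical peaks of highest score were those of SMARCA2 (524.6), FAM106A (433.9) and MIR9-2 (383.1), the last in a non-coding transcript 2221 bp downstream of the start of a neural microRNA. They were followed by RTL3 (259.3), a peak in an intron with no gene named (221.2), LINC01108 (215.5), MIR499A (211.8) and KCNJ1 (182.2). Of the 295 peaks 51 overlapped a SOX17 peak (17.3%, 13.4 to 22%), while 4375 of the 17500 other peaks did (25%, 24.4 to 25.6%). The plain SOX site showed the opposite order: 71.2% (69.8 to 72.5%) of SOX2 peaks overlapping a SOX17 peak had one, against 56.9% (56.1 to 57.8%) of the others.

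The list named 9360 different genes as nearest, and 29 peaks had no gene. The nearest gene is an assignment by distance and not a measured target. Protein-coding genes were nearest to 66.7% of peaks and non-coding RNA genes to 30%. Most genes (5329, 56.9%) had 1 peak, and 595 had 5 or more. DIAPH2-AS1, a non-coding gene, had the most peaks with 22, followed by MIR4454 and EPHA4 (16 each), LRRC4C (15), DPP10 and OPCML (14 each), RBFOX1 and CDH8 (13 each), and LINC01947 and LOC100507468 (12 each). GALNT17, CDH2, COBL and AUTS2 also had 12. EPHA4 encodes an ephrin receptor of axon guidance, LRRC4C and OPCML neuronal adhesion proteins, RBFOX1 a neuronal splicing factor and CDH8 a cadherin. Gene and locus length was not accounted for in these counts. None of the first 10 was absent from the SOX17 list, and of all genes with 5 or more peaks 4.37% were.

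Core pluripotency genes were named nearly completely and with high scores. This list was chosen with earlier results of these data known, so the values describe it and are no independent support. Of 30 genes on this list 26 were named (86.7%), where 31.5% of 20052 protein-coding RefSeq genes were. The median of their best scores was 129.6, against 31.6 over all named genes. A best score is the maximum over the peaks of a gene and can rise with their number. This number averaged 1.9 over all named genes and was not accounted for. The median over all their 81 peaks was 42.3, against 24.1 for the whole list. Best scores were highest for TERF1, a telomere protein (432.1), PRDM14 (377.7), DPPA5 (334.3) and DPPA4 (242.7). The genes without a peak were DPPA3, MYC, FOXD3 and SALL2. Of the 30 genes the SOX17 list of TCam-2 named 22. The share of all protein-coding genes that the SOX17 list named is not given here. The SOX17 counts of this and the following gene lists therefore stand without a background, and no excess can be read from them.

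Single loci of this group differed widely. SOX2 had 5 peaks, with scores of 14.67, 47.43, 97.87, 45.47 and 15.5 from the farthest upstream to the farthest downstream. The highest, 4222 bp downstream of the start site, carries the canonical site printed above. NANOG had 1 peak, 1656 bp upstream, with a score of 116.7. SALL4 had 153.1 at 9206 bp upstream and 88.1 at 2767 bp downstream, in its intron 1. DPPA4 had 242.7 at 18288 bp upstream and 87.3 at 89 bp upstream. FGF4, whose enhancer in mouse lies in the 3′ end of the gene, had its best score, 54.87, in the 3′ UTR, 3722 bp downstream. UTF1, also with a downstream enhancer in mouse, had its peak of 85.17 at 2092 bp downstream. The canonical site, as defined here with 1 base between its parts, was not found in the NANOG, FGF4 or UTF1 peaks.

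In the FGF and ERK list 24 of 28 genes had a peak, where 31.5% of protein-coding genes did, with the feedback inhibitors DUSP6 (298.8) and SPRED2 (278), the ETS factor gene ETV1 (193.1) and the receptor gene FGFR1 (163) on top. In the Nodal and BMP list 21 of 34 were named. The inhibitory SMAD7 had 369.6 there, the BMP target ID1 292.9, the BMP receptor gene ACVR1 289 and the ligand gene GDF3 228.8. The Nodal antagonists LEFTY1 and LEFTY2 had 220.2 and 156.9. In the WNT list 20 of 29 were named, with the antagonist SFRP2 (284.8), the ligand WNT3 (227.7), the receptor FZD7 (218.8) and the nuclear repressor TCF7L1 (134.3) highest. The SOX17 list of TCam-2 named 22, 23 and 21 genes of these lists, in the same order.

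The next 3 lists are read against the same 31.5% of protein-coding genes. SOX genes were named in 11 of 20 cases (55%), led by SOX5 (942.8), SOX6 (234.8), SOX14 (182.7) and SOX3 (147.5). SOX17 was also named, by a peak of low score (14.53) 32975 bp downstream. In the primed and neural list 13 of 30 (43.3%) were named, with OTX2 (383.8), HESX1 (148.1), SOX3 (147.5) and NES (141.4) highest. Neural genes with no peak included PAX6, SOX1, NEUROG2 and OLIG2. Chromatin regulators were named in 15 of 27 cases (55.6%), with SMARCA2 (524.6), JARID2 (184.2), DNMT3B (163) and KDM2B (159.1) highest. The SOX17 list of TCam-2 named 12, 11 and 12 genes of these lists, in the same order.

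Germ cell and seminoma genes were named in 21 of 29 cases (72.4%), with KLF4 (226.4), DND1 (185.1), DAZL (169.9) and TFAP2C (143.9) highest. Endoderm and yolk sac genes were named in 15 of 30 cases (50%), with CDX2 (240.7), EOMES (143.5), SERPINA1 (57.37) and CER1 (56.33) highest. Haematopoietic genes were named in 8 of 30 cases (26.7%), with IL7R (83.33), PRF1 (60.23), CSF1R (25.1) and TAL1 (22.8) highest. Housekeeping genes were named in 6 of 28 (21.4%), led by TFRC (72.8), EEF1A1 (58.83), TUBB (24.23) and PGK1 (21.47). The medians of best scores of the haematopoietic and housekeeping lists, 21.4 and 22.9, were under the 31.6 of all named genes. That of the endoderm and yolk sac list, 29.6, was also under it, and that of the germ cell and seminoma list was 47.4. Muscle genes were named in 11 of 30 cases (36.7%), near the 31.5% background, and their median was 43.3, led by CASQ2 (55.73), PAX7 (51.13), MYL2 (49.77) and MYH2 (47). Of these lists, in the same order, the SOX17 list of TCam-2 named 20, 17, 10, 10 and 7 genes.

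**Figure D4:**
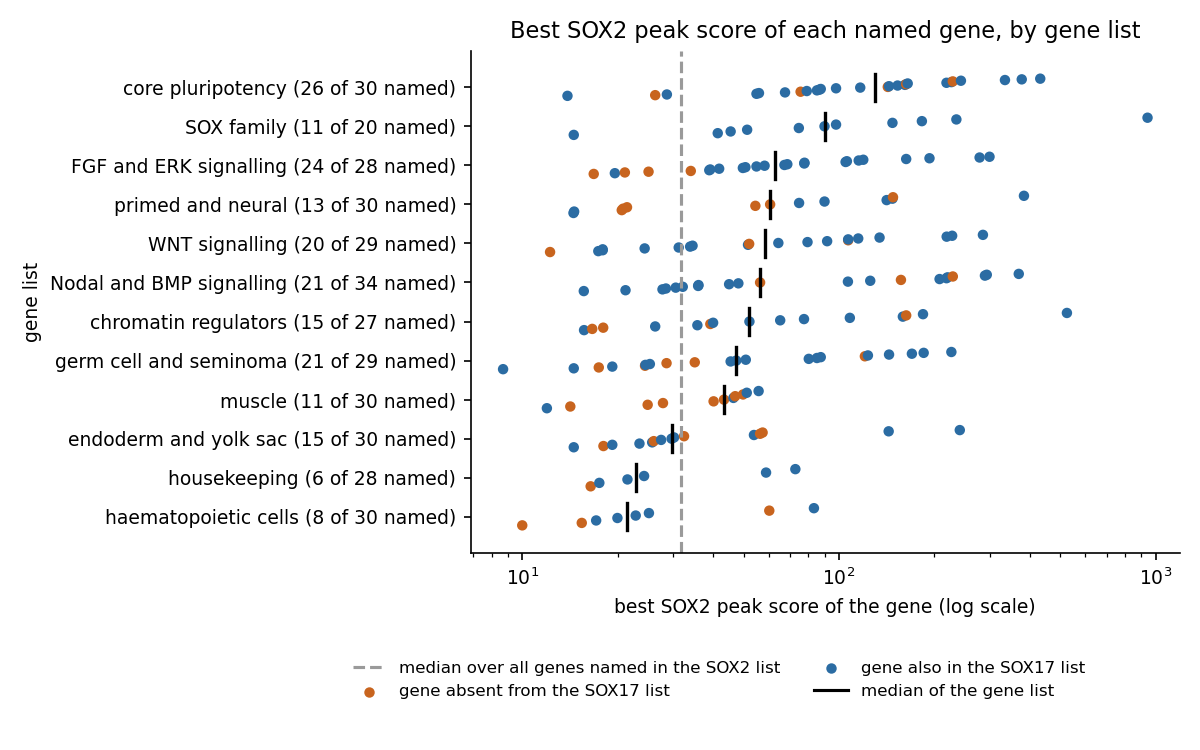
Best SOX2 peak score of each named gene (x axis, log scale) in the 12 gene lists (y axis, with named genes of all genes on the list), in orange for genes absent from the SOX17 list and in blue for the others. Black bars are list medians and the dashed line is the median over all named genes (31.6). The core pluripotency list has the highest median, 129.6. The number of peaks per gene is not accounted for.

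Of the 9360 genes named by SOX2 peaks, 3129 (33.4%, 32.5 to 34.4%) were absent from the SOX17 list. Absence means that no SOX17 peak was assigned to the gene by distance. It does not mean that SOX17 did not bind there in TCam-2, and the 2 blanked lines of the SOX17 list could name up to 2 of these genes. The share fell with the number of SOX2 peaks. It was 45.5% (44.2 to 46.8%) for genes with 1 peak, 25.4% with 2, 12.4% with 3, 8.04% with 4 and 4.37% (3 to 6.33%) with 5 or more. It also fell with the best score, from 49.1% to 17.7% between the groups of genes under the lower and over the upper quartile. Between these groups the mean number of SOX2 peaks per gene rose from 1.18 to 2.78, and score and peak number were not separated.

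**Figure D5:**
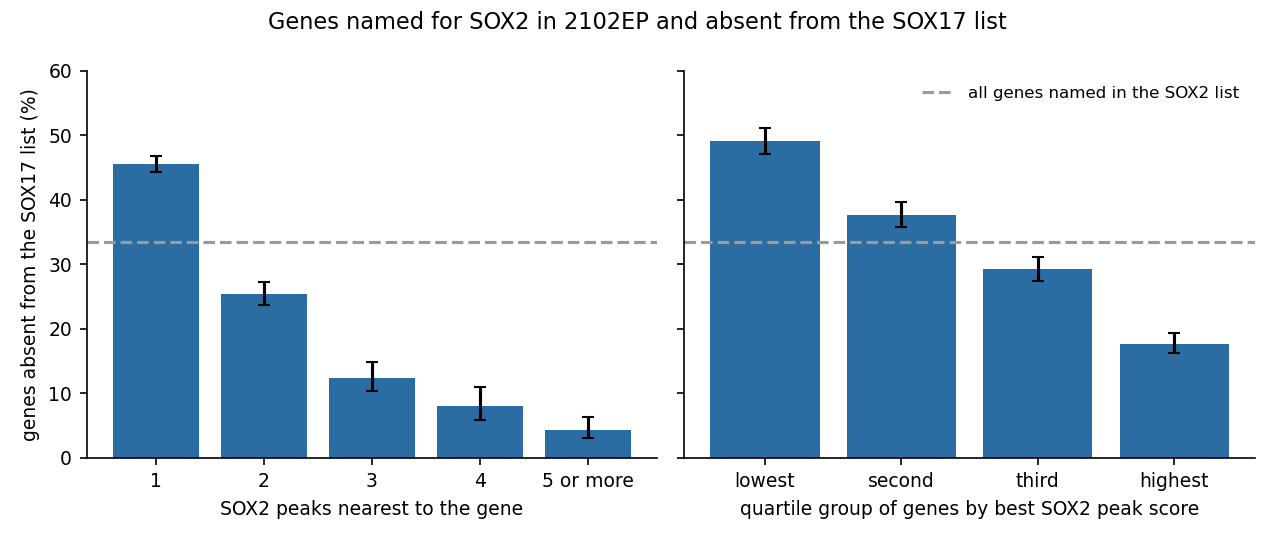
Percentage of genes absent from the SOX17 list (y axis) by number of SOX2 peaks (left) and by quartile group of the best SOX2 score (right), with 95% Wilson intervals. The dashed line is the share over all named genes, 33.4%. The share falls from 45.5% to 4.37% with the number of peaks and from 49.1% to 17.7% with the score.

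The 4109 peaks of absent genes had lower scores and lay nearer to start sites than the 13657 of the other genes, by their medians and with no test. Their median scores were 21.5 and 25, and their median distances 20700 and 49725 bp. Absence was more frequent among genes with few peaks. Peak number and locus length were not accounted for in these scores and distances. A SOX site was present in 57.8% and 61.3%, and a canonical site in 1.85% and 1.6%. The nearest SOX17 peak lay at a median of 105714 bp from the former and 12655 bp from the latter. By definition an absent gene has no SOX17 peak assigned to it, so this difference is partly fixed by the grouping. Even so, 12 peaks of absent genes overlapped a SOX17 peak that was assigned to another gene. A SOX17 peak lay within 50000 bp of a SOX2 peak for 831 of the 3129 genes, and 2298 had none so near.

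The highest-scoring absent genes were AKAP3, which encodes a sperm protein (552.7), HOXB1 (465.1), the gastrin gene GAST (441.8), ZBTB8OS (407.5) and LOC101927159 (376.2). The nearest SOX17 peaks of the first 3 lay 189822, 63985 and 70063 bp away. LINC00941 (347.8), JAKMIP2-AS1 (314.5), ERLNC1 (310.4), CLEC3A (307.3), PCDHAC2 (306), ADA2 (302), MIR4306 (295.8), VDAC1 (293), LOC105378127 (254.1) and FLT3 (248.1) followed. ZYG11A (234), RNA28SN2 (232.9), TIMP4 (228.8), GDF3 (228.8) and ZNF398 (218.9) completed the 20. RNA28SN2 is a ribosomal RNA gene of a repeated array, so its peak is uncertain, and ERLNC1 had a SOX17 peak of another gene 5338 bp away. FLT3 encodes a receptor tyrosine kinase of blood progenitors.

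Absent genes with the most SOX2 peaks were LDB2, a LIM-domain cofactor, and C7orf33 (9 each). FAM133A had 7, and LOC105375556, FHIT, DTNA and PCDH19 had 6 each. LOC101927159, CADPS and TMEM47 had 5 each, and in all 26 absent genes had 5 or more. The best scores of these 10 ran from 28.4 for FAM133A to 376.2 for LOC101927159. At start sites, TIMP4 (228.8), METTL11B (now NTMT2, 209), LOC101928909 (174.4) and WFDC8 (166.8) had the highest peaks of absent genes. HESX1, a homeobox gene of the early forebrain and pituitary, had a peak of 148.1 in its 5′ UTR at 127 bp, and LIN28B, which blocks let-7 maturation, one of 142.6 at 429 bp in intron 1.

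The absent core pluripotency genes were POU5F1, MYCN, GDF3, LIN28B and DNMT3B. Of the 26 named core genes, which had 81 peaks, 5 were absent (19.2%, beside 33.4% over all genes, most of which had 1 peak). The nearest SOX17 peak lay 25773 bp from the POU5F1 peak (score 75.63), 26337 bp from that of MYCN (26.27) and 32857 bp from that of GDF3 (228.8). It lay 139239 bp from that of LIN28B (142.6) and 169802 bp from the higher of the DNMT3B peaks (163). DNMT3B encodes a de novo DNA methyltransferase.

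The counts of absent genes in the other lists are small and are read against 33.4% of all named genes. They were 6 of 13 in the primed and neural list (ZIC5, HESX1, SIX3, RAX, HES5 and CRABP2) and 4 of 24 in the FGF and ERK list (FGF8, FGF19, FGFR4 and SPRED1). In the Nodal and BMP list they were 3 of 21, and these were GDF3 and the antagonist genes LEFTY2 and CER1. In the WNT list they were FZD2 (106.9), WNT5B (52.03) and LRP5 (12.23), 3 of 20. The germ cell and seminoma list had 5 of 21 (ALPG, PIWIL1, TEKT1, KITLG and MAEL) and the endoderm and yolk sac list 5 of 15 (SERPINA1, CER1, ALB, GPC3 and HNF4A). Chromatin regulators had 4 of 15 (DNMT3B, EED, DNMT1 and SETDB1), haematopoietic genes 3 of 8 (PRF1, IKZF1 and FCGR3A), muscle genes 7 of 11 (MYL2, MYH2, MYF5, MYF6, ACTA1, DES and MYOG) and housekeeping genes 1 of 6 (PSMB2). No SOX family gene was absent, 0 of 11.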

How the data were processed

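Per the series' design text, CLC Genomics Workbench 12 mapped the 75 bp reads (hg38) and HOMER was used from there on. No source used here gives calling settings or how input entered the calling. The authors deposited 1 merged, annotated peak list per factor with a peak score of unstated scale, and positions and distances in bp, per the file headers. The lists have 0 columns of a single library. Each peak name has the suffix 3, and no source used here explains it.

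Genes were the deposited nearest genes, keyed by name. In the SOX2 list 3 names (4 peaks) had turned into dates and were restored through the Entrez ID. Distances were checked against GENCODE 44: 97.6% of 16065 lay within 1000 bp of that to a start site of the same gene. Words were searched on both strands in hg38 with python 3.11.15 and pysam 0.24.0, and the search was tested on simulated data. RefSeq held 9331 of the 9360 genes by Entrez ID.

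Named genes were, by rule, the 20 highest scores, the 10 highest within 1000 bp of a start site, the 10 genes with most peaks, the 20 highest and 10 most frequent absent genes, 8 canonical peaks, up to 4 genes per list with all absent members, and 18 fixed genes. The members and lists were chosen with earlier results of these data known. The longer naming of genes without a peak and of HESX1 and LIN28B and 4 others at start sites, and of genes tied in peak number, was chosen after their values were seen. Alternatives used other peak sets, windows, mismatches, distances and gene keys.
Some items are not reported here.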

Additional observations from a re-analysis of the deposited data

How the results depend on the processing

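The shares moved with the peaks counted. The promoter-TSS share was 2.23% in the higher-scoring peaks and 4.37% outside repeats, beside 2.56%. The share over 100 kb from a start site was 25.6% and 24.4%, beside 27.1%. A SOX site was present in 62% outside repeats, in 49.6% within 50 bp, and in 82.1% with C or T as its first base, an alternative added after seeing the data. The canonical share was 0.236% with no mismatch in the octamer. Genes absent from the SOX17 list were 46.1% in the higher-scoring peaks, 42.9% outside repeats and 45.1% within 50 kb of a start site. They were 24.6% when no SOX17 peak could lie within 50 kb. The alternatives with fewer peaks leave fewer SOX17 peaks to name a gene. The other 15 values, the pluripotency counts among them, moved by less than their interval or 1.5 times. No paired analysis was possible because single libraries have no values in the lists, and for that reason no replicate could be left out. Depth is unknown, so weak sites that were not called cannot be seen.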

Other observations

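The smallest distance between the centres of neighbouring peaks was 1101 bp and the median to the nearest other peak 42951 bp. Within 10000 bp of another lay 2316 peaks (13%), and within 1000 bp 0. The list is merged and its calling settings are unknown, so a minimum spacing set in processing cannot be told apart from the spacing of binding.

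Peak density was highest on chromosomes 17 (7.23 peaks per Mb), 12 (7.22) and 20 (7.09), and it was 3.29 on chromosome 13 and 4.13 on chromosome 21. The median score was 32 on chromosome 12, 27 on chromosome 20 and 26.7 on chromosome 17, and 20.6 on chromosome 13. Density and score were not corrected for gene content, mappability or copy number.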
